A study of Mus musculus with 13 samples.

Results

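The 9 genes described here are transcription factors and chromatin regulators of the developing gonad that were not among the factors used to make induced Sertoli cells. They are Lhx9, Emx2, Six4, Cbx2, Gata6, Zfpm2, Sox8, Nr0b1 and Tcf21. All array features that the platform annotation assigns to these genes were taken, which gave 21 of the 62976 features of the array and 9 of its 20738 named genes. Nr0b1 had 10 features, Lhx9 had 3, Zfpm2 had 2 and each other gene had 1.

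The study measured RNA from wild-type mouse cells and tissue on 13 1-colour arrays in 7 groups. Mouse embryonic fibroblasts carrying an empty vector (MEF, 2 arrays) and tail tip fibroblasts carrying tdTomato (TTF, 2 arrays) were grown for 3 passages in 10% serum. Induced embryonic Sertoli cells are labelled as carrying Nr5a1, Wt1, Dmrt1, Gata4 and Sox9 and were kept for 6 months in 2% serum with doxycycline (MEF-ieSC, 1 array; TTF-ieSC, 2 arrays). The native groups, with no transgene, were the male gonad at 14.5 dpc, taken whole and not cultured, and Sertoli cells in 10% serum (2 arrays each). Immature ones came from 19 dpc embryos and were grown for 3 days, and mature ones came from 8-week mice and were grown for 7 days. No group held fibroblasts kept like the induced cells without the factors, so effects of the factors and of culture cannot be told apart. Another array of MEF-ieSC named in the design was not analysed here, and whether an induced line was 1 clone is not given in the sources used here.

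The gonad forms from the coelomic epithelium as a ridge in which LIM and other homeobox factors are needed for the tissue to appear and for Nr5a1 to be switched on. In the XY gonad, Gata factors with their cofactor Zfpm2, the Polycomb protein Cbx2 and Six4 act upstream of Sry, and SoxE proteins then maintain the Sertoli cell. Nr0b1, an orphan nuclear receptor that lacks a usual DNA-binding domain, binds Nr5a1 and restrains it. Tcf21, a basic helix-loop-helix factor, marks gonadal interstitial progenitors and restrains Nr5a1 transcription.

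Levels are deposited log2 signals, and a difference of 1 is a change of 2-fold. Every array had the same distribution, with a median of 7.488, and no detection flags were used here, so a value under that median is called dim. Between replicates of a group the log2 signal of the 16658 genes tested differed by a root mean square of 0.167 to 0.310. Of 10 Sertoli cell markers, all 10 lay above the array median in gonad and immature Sertoli cells, 9 in mature cells (Amh was below), 8 in both induced groups (Amh and Fshr were below) and 6 in both fibroblast groups. The mean log2 signal of these 10 was 12.96 to 13.29 on native arrays and 8.63 to 9.57 on fibroblast arrays. In between lay MEF-ieSC at 10.96 and TTF-ieSC at 11.37 to 11.38. Of 8 germ cell markers, 8 lay above the array median in gonad and 7 in each Sertoli cell culture, against 2 in each other group. The mean log2 signal of these 8 was 13.09 to 13.12 on the gonad arrays, 11.11 to 11.16 in immature and 10.13 to 10.39 in mature cultures, and 6.06 to 6.78 on fibroblast and induced arrays. The 4 Leydig cell markers on the array averaged 15.74 to 15.76 in gonad, 12.07 to 12.17 in the Sertoli cell cultures and 7.40 to 9.22 elsewhere. The 5 mesothelial markers, among them Msln, averaged 12.17 in MEF-ieSC and 12.66 to 12.69 in TTF-ieSC, against 8.43 to 10.47 on all other arrays. The 7 fibroblast markers averaged 16.46 to 16.57 in MEF and TTF, 13.21 to 14.69 in the native groups and 9.45 to 9.75 in the induced groups, where Thy1, Lox and Postn lay below the array median. The part of mesothelial and fibroblast cells in the results on the 9 genes was not tested. The native groups were mixed by these markers, and in such bulk RNA fewer cells of a type and less RNA per cell cannot be told apart.

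Of the 5 factors on the label of the induced cells, Wt1 was higher than in the starting cells in both groups, with means of 16.48 in TTF-ieSC and 16.58 in MEF-ieSC against 6.81 in TTF and 11.77 in MEF. Nr5a1 rose from TTF (1.09 ± 0.09) and had -0.26 ± 0.11 from MEF (adjusted p = 0.0559). Sox9 was lower than in both fibroblasts (-1.52 ± 0.07 and -1.76 ± 0.09), Gata4 was lower than in MEF (-2.51 ± 0.18), and Dmrt1 did not pass in either (adjusted p = 0.412 and 0.0614). Whether these features lie in the transgenes is not given in the sources used here, so they do not check the label.

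The gonad had the highest mean of the 7 groups for 7 of the 9 genes, and MEF had it for Emx2 and Six4. The lowest mean lay in an induced group for 5 genes, in TTF for Lhx9, Cbx2 and Sox8, and in immature Sertoli cells for Six4. Of 54 pairs of groups that stood next to each other in the order of a gene's levels, 24 differed at an adjusted p under 0.05. These pairs were chosen by the order of each gene's own means, which favours small differences. No share of such pairs was computed over all genes. The shares that follow are for fixed pairs of groups and are not a background for this count. Of all genes 14.3% were called between the induced groups, and 66.6% to 81.8% between the other groups. By pair, these shares were 72.3%, 73.4%, 77.9% and 66.6% with MEF (against TTF-ieSC, mature Sertoli cells, gonad and TTF) and 70.4%, 78%, 77.1% and 81.8% with TTF (against MEF-ieSC, immature and mature Sertoli cells and gonad). They were 75% and 74.9% between MEF-ieSC and gonad or mature Sertoli cells, 79.6% between TTF-ieSC and mature Sertoli cells and 79.8% between gonad and mature Sertoli cells.

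**Figure D1:**
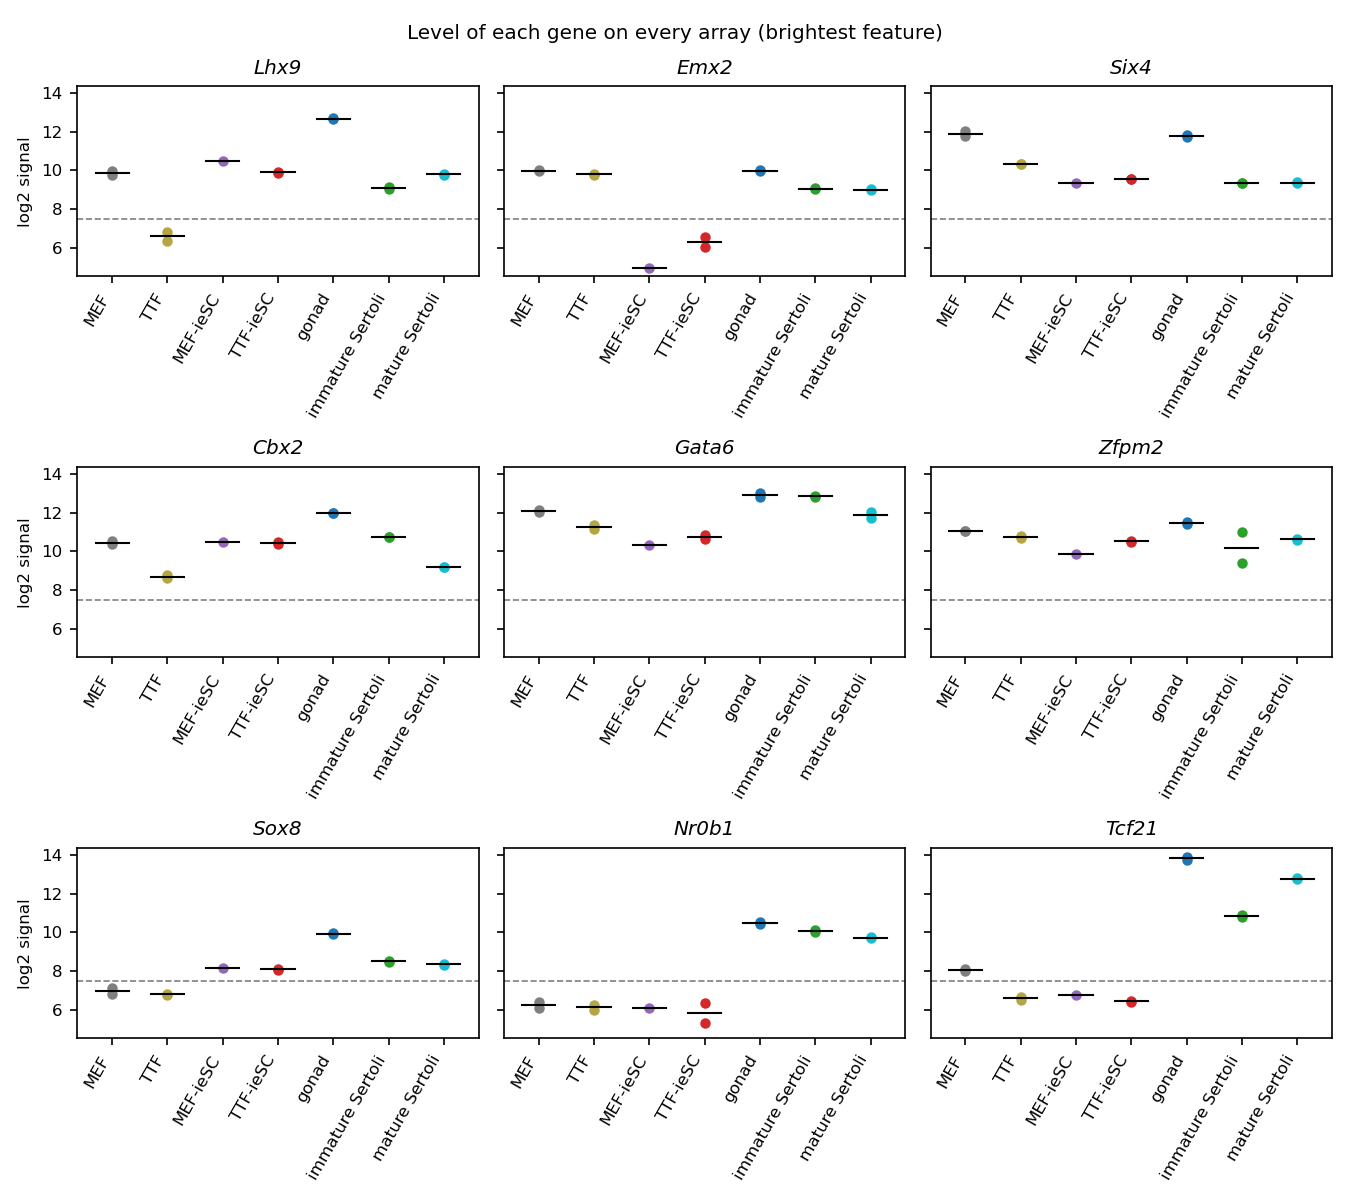
Each panel plots the log2 signal of a gene on every array (points) by group, with the group mean as a bar and the array median of 7.488 as a dashed line. Nr0b1 and Tcf21 lie above the line in all 6 native arrays and below it in TTF and in all induced arrays, and Emx2 lies below it only in the 3 induced arrays.

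Lhx9, a LIM homeobox factor without which the gonad does not form, was present in MEF, dim in TTF and well above the array median in both induced groups. Its brightest feature read 9.77 and 9.97 in MEF, 6.36 and 6.83 in TTF, 10.50 in MEF-ieSC and 9.87 and 9.93 in TTF-ieSC. The gonad arrays read 12.66 and 12.68, the immature Sertoli arrays 9.06 and 9.13 and the mature ones 9.75 and 9.83. The gonad arrays were the highest and the TTF arrays the lowest, and neither overlapped any other group. Lhx9 rose by 3.31 ± 0.14 (log2 difference ± SE) in TTF-ieSC against TTF (adjusted p = 4.85e-08) and by 0.63 ± 0.17 in MEF-ieSC against MEF (adjusted p = 0.00919). The size of the former depends on the dim TTF values. The other features of Lhx9 gave 2.94 and 4.34 for the rise from TTF, and both passed. For MEF-ieSC against MEF they gave 0.24 and 0.29, with adjusted p = 0.640 and 0.472, so the smaller rise rested on the brightest feature. TTF-ieSC exceeded immature Sertoli cells by 0.81 ± 0.14 and lay 2.76 below the gonad (difference -2.76 ± 0.14). The excess over immature cells passed with 2 of the 3 features, and the third gave 0.26 (adjusted p = 0.394). In the order of levels TTF-ieSC, MEF and mature Sertoli cells did not differ between neighbours (adjusted p = 0.844 and 0.594). The LIM homeobox relative Lhx2 had a mean of 10.37 in MEF and 7.14 in MEF-ieSC, and fell by 3.22 ± 0.12 there.

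Emx2, a homeobox factor needed for the urogenital epithelium, fell in both inductions and was lowest in the induced cells. Its single feature read 10.00 and 9.97 in MEF, 9.76 and 9.83 in TTF, and 10.00 and 9.96 in gonad. It read 9.01 and 9.10 in immature and 8.999 and 9.01 in mature Sertoli cells. The induced arrays stood apart at 4.97 in MEF-ieSC and 6.54 and 6.05 in TTF-ieSC, all under the array median. The fall was 3.50 ± 0.13 in TTF-ieSC against TTF (difference -3.50, adjusted p = 2.85e-08) and 5.01 ± 0.16 in MEF-ieSC against MEF (difference -5.01, adjusted p = 1.83e-08). Only 6.56% of the genes tested differed by more in the former comparison and 2.37% in the latter. The induced values are dim, so an unknown background enters the size of these folds. TTF-ieSC also lay below immature Sertoli cells by 2.76 (difference -2.76 ± 0.13) and below the gonad by 3.68 (difference -3.68 ± 0.13). MEF, gonad and TTF did not differ between neighbours (adjusted p = 0.967 and 0.230), nor did immature and mature Sertoli cells (adjusted p = 0.751). Emx1, the other member of the Emx family, had group means of 5.42 to 6.87, dim in every group.

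Six4, a homeobox factor related to sine oculis that acts upstream of Nr5a1 and Sry, was high in MEF and gonad and lower in every Sertoli and induced group. It read 12.02 and 11.75 in MEF, 10.35 and 10.30 in TTF, 9.35 in MEF-ieSC and 9.57 and 9.57 in TTF-ieSC. The gonad arrays read 11.84 and 11.72, the immature Sertoli arrays 9.34 and 9.34 and the mature ones 9.37 and 9.33. The MEF and gonad arrays overlapped, and all induced and Sertoli cell arrays lay within 9.33 to 9.57. Six4 fell by 2.54 ± 0.10 in MEF-ieSC against MEF (difference -2.54, adjusted p = 8.10e-08) and by 0.76 ± 0.09 in TTF-ieSC against TTF (difference -0.76, adjusted p = 4.47e-05). MEF-ieSC and immature Sertoli cells differed by 0.01 ± 0.10 (adjusted p = 0.935). TTF-ieSC was above immature cells by 0.23 (adjusted p = 0.0359). Leaving out TTF-ieSC replicate 1 or 2 ended that call (adjusted p = 0.104 and 0.0995), and so did leaving out immature replicate 1 or 2 (adjusted p = 0.0954 and 0.0925). The relative Six2 fell in both, with differences of -7.52 ± 0.28 in MEF-ieSC against MEF and -3.77 ± 0.23 in TTF-ieSC against TTF. Six5 had means of 11.54 and 11.46 in MEF and TTF and of 12.44 and 12.59 in MEF-ieSC and TTF-ieSC.

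Cbx2, a chromobox subunit of Polycomb repressive complex 1 whose loss reverses XY sex in mice, rose from TTF to the level it already had in MEF. It read 10.52 and 10.36 in MEF, 8.62 and 8.78 in TTF, 10.46 in MEF-ieSC and 10.37 and 10.50 in TTF-ieSC. The gonad arrays read 11.996 and 11.97, the immature Sertoli arrays 10.73 and 10.76 and the mature ones 9.20 and 9.20. Gonad was highest and TTF lowest with no overlap, while the MEF, MEF-ieSC and TTF-ieSC arrays overlapped. The rise was 1.74 ± 0.08 in TTF-ieSC against TTF (adjusted p = 8.91e-08), while MEF-ieSC against MEF gave 0.01 ± 0.10 (adjusted p = 0.912). Cbx2 fell by 1.54 ± 0.08 from immature to mature Sertoli cells (difference -1.54, adjusted p = 4.69e-07). Both induced groups were within 0.31 of immature cells, with differences of -0.31 ± 0.08 (adjusted p = 0.00610) and -0.29 ± 0.10 (adjusted p = 0.0243). The call for MEF-ieSC was lost without immature Sertoli replicate 2 (adjusted p = 0.0682) and when only these groups were fitted (adjusted p = 0.0959).

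Other genes of Polycomb repressive complex 1 changed in both directions. Of 12 listed, 10 were tested, of which 5 rose and 1 fell in TTF-ieSC against TTF (39.5% and 35.2% of all genes). The median difference was 0.22 against 0.06 over all genes. Among the listed genes that rose were Pcgf6 (1.43 ± 0.10) and the polyhomeotic gene Phc2 (1.20 ± 0.13). In MEF-ieSC against MEF 2 of the 10 rose and 2 fell, against 34.3% and 33.6% of all genes. The largest of these changes was in Bmi1, a Polycomb ring finger subunit, at -3.05 ± 0.55 (adjusted p = 0.00116), whose SD between the immature Sertoli arrays was 1.28. Ring1, a ubiquitin ligase of the complex, rose by 1.22 ± 0.10 there, and by 0.88 ± 0.08 from TTF.

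Gata6, a zinc finger factor that shares targets with Gata4 in gonadal somatic cells, was high in gonad and immature Sertoli cells and lowest in the induced cells. It read 12.02 and 12.11 in MEF, 11.15 and 11.34 in TTF, 10.31 in MEF-ieSC and 10.63 and 10.84 in TTF-ieSC. The gonad arrays read 12.82 and 13.0001, the immature Sertoli arrays 12.78 and 12.88 and the mature ones 11.74 and 12.01. All 3 induced arrays lay below every other array. Gata6 fell by 1.75 ± 0.14 in MEF-ieSC against MEF (difference -1.75, adjusted p = 8.01e-06) and by 0.51 ± 0.12 in TTF-ieSC against TTF (difference -0.51, adjusted p = 0.00391). TTF-ieSC lay below immature Sertoli cells by 2.10 (difference -2.10 ± 0.12) and MEF-ieSC by 2.52 (difference -2.52 ± 0.14). Gonad and immature cells did not differ beyond their spread (adjusted p = 0.555), and Gata6 fell by 0.95 ± 0.12 in mature against immature cells (difference -0.95). Gata4, a labelled factor, had means of 14.16 in immature Sertoli cells, 9.43 in MEF, 7.19 in TTF and 6.92 in both induced groups. Gata1, which is expressed in Sertoli cells, had means of 6.25 in MEF and 11.93 in MEF-ieSC and of 4.14 in TTF and 11.60 in TTF-ieSC. Its rises were 5.68 ± 0.78 and 7.45 ± 0.64, from dim values.

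Zfpm2, the cofactor that Gata4 must bind for testis differentiation, varied least of the 9 genes, with group means over a range of 1.60. Its brighter feature read 10.97 on immature Sertoli replicate 1 and 9.39 on replicate 2. Its other feature read 10.38 and 10.37 there. Above-median features next to the brighter feature on the array had a median difference of -0.99 between these replicates, and 71.9% of them were lower by over 0.5, against 2.09% of all such features. The same held for 1 of the 3 features of Lhx9, which read 9.05 and 7.66 beside neighbours with a median difference of -1.13. The array layout behind this was inferred from the feature numbers. The Sox8 feature came next, with a neighbour median of -0.31. Neighbour medians of the members in every other pair of replicates lay between -0.15 and 0.21. The single MEF-ieSC array, set against the mean of TTF-ieSC, had neighbour medians of -0.13 to 0.12 at the members.

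With the other feature of Zfpm2 the spread was small and the differences were called. It read 10.52 and 10.52 in MEF, 10.08 and 10.12 in TTF, 9.53 in MEF-ieSC and 9.85 and 9.74 in TTF-ieSC. The gonad arrays read 10.67 and 10.66 and the mature Sertoli arrays 10.05 and 10.05. The induced arrays were the lowest and did not overlap any other group. With this feature Zfpm2 fell by 0.99 ± 0.06 in MEF-ieSC against MEF (difference -0.99, adjusted p = 1.30e-06) and by 0.31 ± 0.05 in TTF-ieSC against TTF (difference -0.31, adjusted p = 0.000486). With the brighter feature these were -1.17 ± 0.48 (adjusted p = 0.0589) and -0.24 ± 0.39 (adjusted p = 0.599). TTF-ieSC against immature Sertoli cells changed sign between the features, from 0.32 with the brighter to -0.58 with the other. Without immature replicate 2 the brighter feature gave -0.47 (adjusted p = 0.000579), and without replicate 1 it gave 1.11 (adjusted p = 4.24e-06). The relative Zfpm1, a cofactor of Gata1, had means of 13.23 and 12.14 in MEF and TTF and of 14.39 and 14.33 in the cells made from them. Its rise from TTF was 2.20 ± 0.05.

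**Figure D2:**
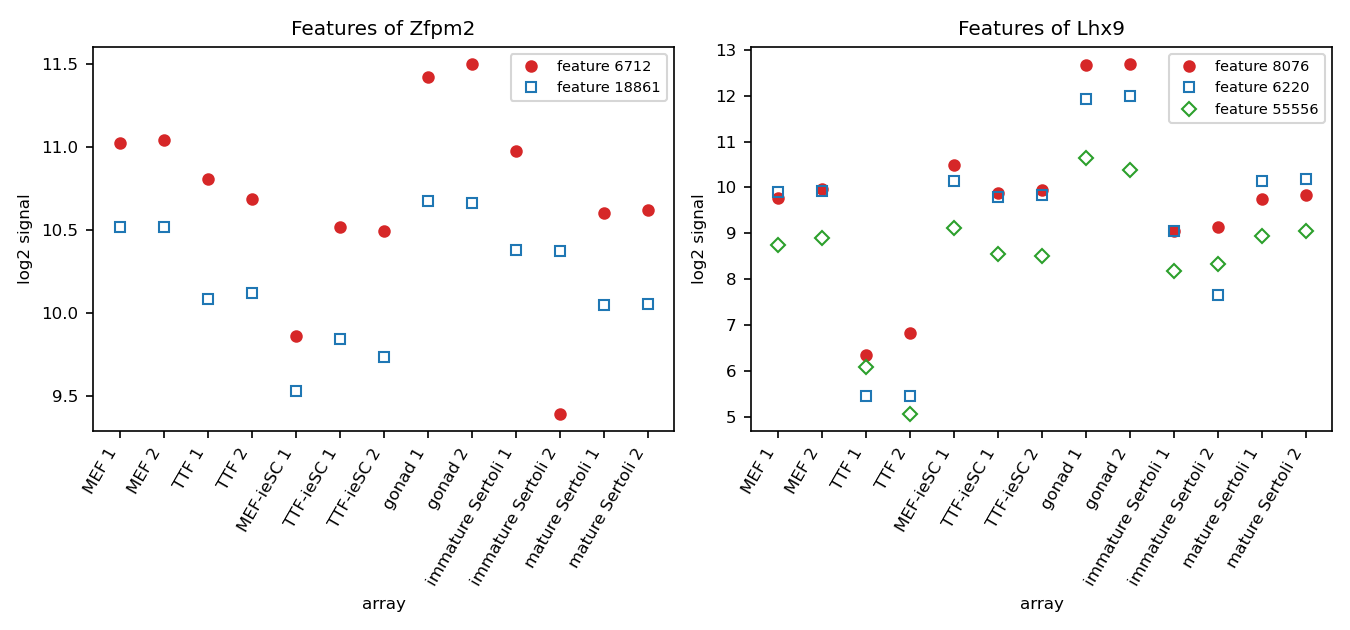
The log2 signal of the 2 features of Zfpm2 (left) and the 3 features of Lhx9 (right) is plotted for each of the 13 arrays. On immature Sertoli replicate 2, feature 6712 of Zfpm2 drops to 9.39 and feature 6220 of Lhx9 to 7.66, while their other features hold the level of replicate 1.

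Sox8, a SoxE factor that reinforces Sox9 in Sertoli cells and binds the Amh promoter, rose in both inductions from a dim level. It read 7.10 and 6.82 in MEF and 6.78 and 6.84 in TTF, all dim. The induced arrays read 8.16 in MEF-ieSC and 8.07 and 8.10 in TTF-ieSC, and the gonad arrays 9.92 and 9.95. Immature Sertoli cells read 8.53 and 8.47 and mature ones 8.29 and 8.39. All induced arrays lay above all fibroblast arrays and below all native ones. The rises were 1.28 ± 0.09 in TTF-ieSC against TTF (2.42-fold, adjusted p = 1.66e-06) and 1.20 ± 0.11 in MEF-ieSC against MEF (2.30-fold, adjusted p = 1.43e-05). Their difference was 0.08 ± 0.14 (adjusted p = 0.678). An unknown background enters both folds, since all 4 fibroblast arrays were dim. Against immature Sertoli cells Sox8 was lower by 0.42 ± 0.09 in TTF-ieSC (difference -0.42, adjusted p = 0.00239) and by 0.34 ± 0.11 in MEF-ieSC (difference -0.34, adjusted p = 0.0209). The latter did not pass without immature replicate 1 (adjusted p = 0.0667) or when only these groups were fitted (adjusted p = 0.0573). In the order of levels immature, mature, MEF-ieSC and TTF-ieSC did not differ between neighbours (adjusted p = 0.135, 0.168 and 0.701). Neighbours of the Sox8 feature on the array had a median difference of -0.31 between the immature replicates, with 23.8% lower by over 0.5, and the feature itself differed by -0.06. Of the other SoxE genes, Sox9 had means of 9.79 in TTF-ieSC, 11.31 in TTF and 13.47 in immature Sertoli cells. Sox10 had means of 10.56 in MEF-ieSC, 10.62 in TTF-ieSC, 8.29 in immature Sertoli cells and 10.94 in gonad.

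Nr0b1, which binds Nr5a1 and in the embryonic testis is needed for cord formation in mice, separated native from all other arrays. Its 10 features carry the same transcript accession and give the error between features on each array. Their means were 10.48 and 10.40 on the gonad arrays, 10.06 and 9.98 on the immature and 9.70 and 9.63 on the mature Sertoli arrays. They were 5.35 and 4.98 in MEF, 5.32 and 5.29 in TTF, 5.19 in MEF-ieSC and 5.52 and 5.59 in TTF-ieSC. No feature on a native array read below 9.44, and none on another array read above 7.25. The SD between the 10 features was 0.06 to 0.16 on native arrays and 0.44 to 1.10 on the dim ones.

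For the feature taken for the test, Nr0b1 in TTF-ieSC lay 4.25 below immature Sertoli cells (difference -4.25 ± 0.27) and 4.67 below gonad (difference -4.67 ± 0.27). Over the 10 features these differences ran from -4.90 to -3.86 and from -5.33 to -4.29. Nr0b1 met the filter on low values through the native arrays alone, so these differences are a description. The change from TTF was -0.29 ± 0.27 (adjusted p = 0.358) and that from MEF was -0.16 ± 0.34 (adjusted p = 0.699). Over the 10 features these ran from -0.62 to 1.44 and from -2.004 to 1.74, around medians of -0.01 and -0.09. A total of 2 features passed in each, both upward in the former and in opposite directions in the latter. The former was called, at -0.80 (adjusted p = 0.00188), without TTF-ieSC replicate 2, and was 0.21 without replicate 1. Among native groups, immature cells were lower than gonad by 0.42 with the mean of the 10 features (difference -0.42, adjusted p = 0.00780) and mature lower than immature by 0.36 (difference -0.36, adjusted p = 0.0165). In the fit over all arrays no single feature was called in either. With the feature taken for the test, both were called when a TTF-ieSC array was left out (adjusted p = 0.0171 for immature against gonad without either, and 0.0344 and 0.0343 for mature against immature) or when these groups were fitted alone (adjusted p = 0.00727 and 0.0130). Nr5a1, its partner, had means of 15.73 in gonad and 13.89 in immature Sertoli cells, and of 9.37 and 8.94 in TTF-ieSC and MEF-ieSC. The related receptor gene Nr0b2 had means of 8.70 in gonad and 7.74 in immature cells and was dim, at 5.90 to 6.72, in the induced and fibroblast groups.

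**Figure D3:**
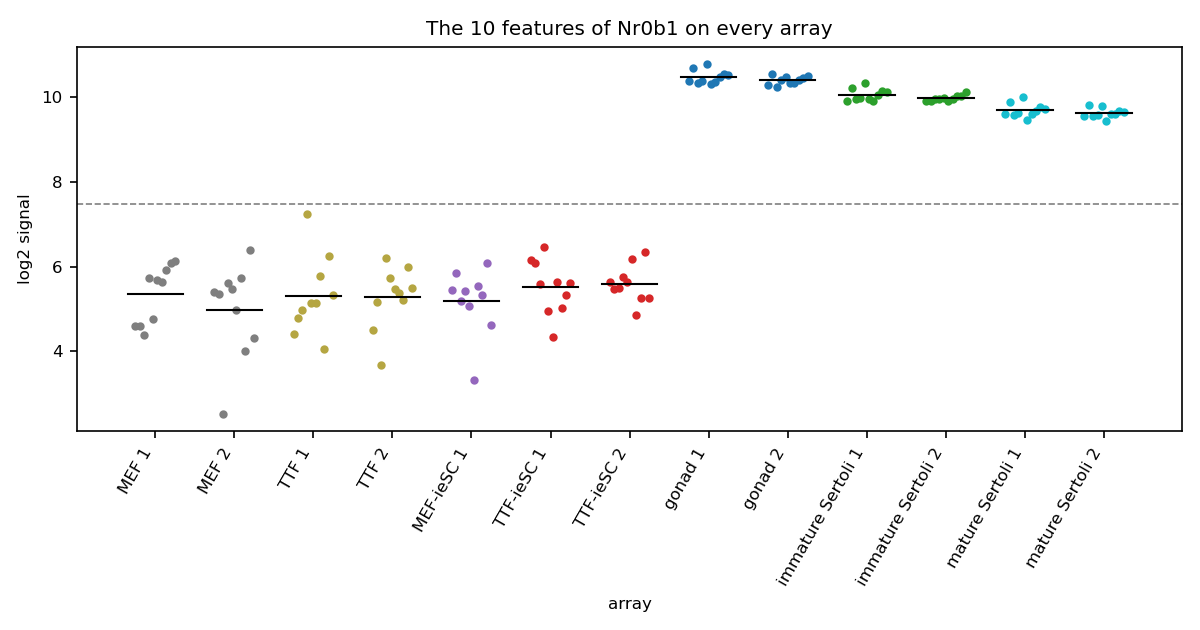
Points give the log2 signal of the 10 features of Nr0b1 on each array, bars their mean and the dashed line the array median of 7.488. The native arrays form tight groups from 9.44 to 10.78, and the fibroblast and induced arrays scatter from 2.53 to 7.25.

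Tcf21 had the widest range of the 9 genes, with group means 7.37 apart, and was high in native samples alone. It read 8.01 and 8.09 in MEF, 6.67 and 6.51 in TTF, 6.76 in MEF-ieSC and 6.46 and 6.42 in TTF-ieSC. The gonad arrays read 13.73 and 13.90, the immature Sertoli arrays 10.78 and 10.88 and the mature ones 12.73 and 12.79. The 3 native groups did not overlap each other, and all lay above the other 7 arrays. Tcf21 fell by 1.29 ± 0.10 in MEF-ieSC against MEF (difference -1.29, adjusted p = 5.28e-06), while the difference from TTF, dim on both sides, was -0.15 ± 0.08 (adjusted p = 0.138). TTF-ieSC lay below gonad by 7.37 (difference -7.37 ± 0.08), and 0.486% of the genes tested differed by more. Against immature cells the difference was -4.39 ± 0.08 for TTF-ieSC and -4.07 ± 0.10 for MEF-ieSC.

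Mature Sertoli cultures had 1.93 ± 0.08 more Tcf21 than immature ones (adjusted p = 1.62e-07). Interstitial cells express Tcf21 in the testis, and the 7 interstitial and peritubular markers on the array averaged 12.995 to 13.04 in mature and 12.38 to 12.43 in immature cultures. Of these, Pdgfra had means of 13.73 in mature and 12.14 in immature cells and Nr2f2 of 12.46 and 11.43. Among Leydig cell genes, Star, which moves cholesterol into mitochondria, had means of 13.46 and 11.91, whereas Hsd3b1 had 10.49 and 12.17. The part of these cells in the Tcf21 result was not tested.

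Promoter windows of Nr0b1 and Tcf21 are shown because these genes had the most alike profiles of the 9 (Pearson r of 0.949 over the 13 arrays, which include replicates of the same groups). The windows are the 250 bases before the RefSeq start in GRCm38.p6, at chrX:86191525-86191774 on the plus strand and chr10:22820144-22820393 on the minus strand. Both strands were searched. The letters CAAGGTCA are bound by Nr5a1. The motif of the Gata family was AGATAA. For Sox proteins the letters searched were AACAAT. The site of Wt1 and Egr factors was GCGGGGGCG. Capitals mark a match, and no match overlapped another.
Nr0b1: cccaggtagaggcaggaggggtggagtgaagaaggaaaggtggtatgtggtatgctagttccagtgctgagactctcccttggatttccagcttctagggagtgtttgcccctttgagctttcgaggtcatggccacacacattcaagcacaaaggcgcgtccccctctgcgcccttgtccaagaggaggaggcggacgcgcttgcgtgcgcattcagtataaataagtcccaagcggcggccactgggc
Tcf21: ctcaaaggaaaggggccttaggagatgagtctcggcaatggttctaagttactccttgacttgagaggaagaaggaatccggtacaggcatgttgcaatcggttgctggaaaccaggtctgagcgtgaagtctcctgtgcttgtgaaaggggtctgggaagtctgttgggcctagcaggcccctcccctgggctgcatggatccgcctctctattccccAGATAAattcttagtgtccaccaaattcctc
Tcf21 held 1 AGATAA, whose first base lies 31 bases before the start, and 9.99% of all 32851 windows held that motif. The Nr0b1 window held none of the 4 motifs, and neither did those of Sox8, Lhx9, Emx2 and Six4. Only these exact letters were searched, so variant sites would be missed. No window of Cbx2, Zfpm2 or Gata6 is reported here. Over all windows, 1.33% held CAAGGTCA, 9.42% held AACAAT and 2.57% held GCGGGGGCG.

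Of 18 relatives of the 9 factors, 15 were tested, of which 8 rose and 6 fell in TTF-ieSC against TTF and 7 rose and 6 fell in MEF-ieSC against MEF. The medians were 0.32 and 0.02, against 0.06 and 0.01 over all genes. Of all genes 39.5% rose and 35.2% fell in the former, and 34.3% and 33.6% in the latter.

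Counted together, the 9 genes did not move one way in the induction from TTF. In TTF-ieSC against TTF 6 of the 9 were called, against 74.7% of all genes tested, with Sox8, Lhx9 and Cbx2 higher (39.5% of all genes) and Emx2, Gata6 and Six4 lower (35.2%). With a difference of 1 or more in size as well, 4 were called (Sox8, Lhx9, Emx2 and Cbx2), against 33.7% of all genes. The median difference was -0.24 over the 9 and 0.06 over all genes. In MEF-ieSC against MEF 6 were called too, against 67.9% of all genes, with Sox8 and Lhx9 higher (34.3%) and Emx2, Gata6, Tcf21 and Six4 lower (33.6%). With the size rule 5 were called, against 29.2%, and the median difference was -1.17 against 0.01. The shares called at the adjusted p alone were therefore near the background in both.

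**Figure D4:**
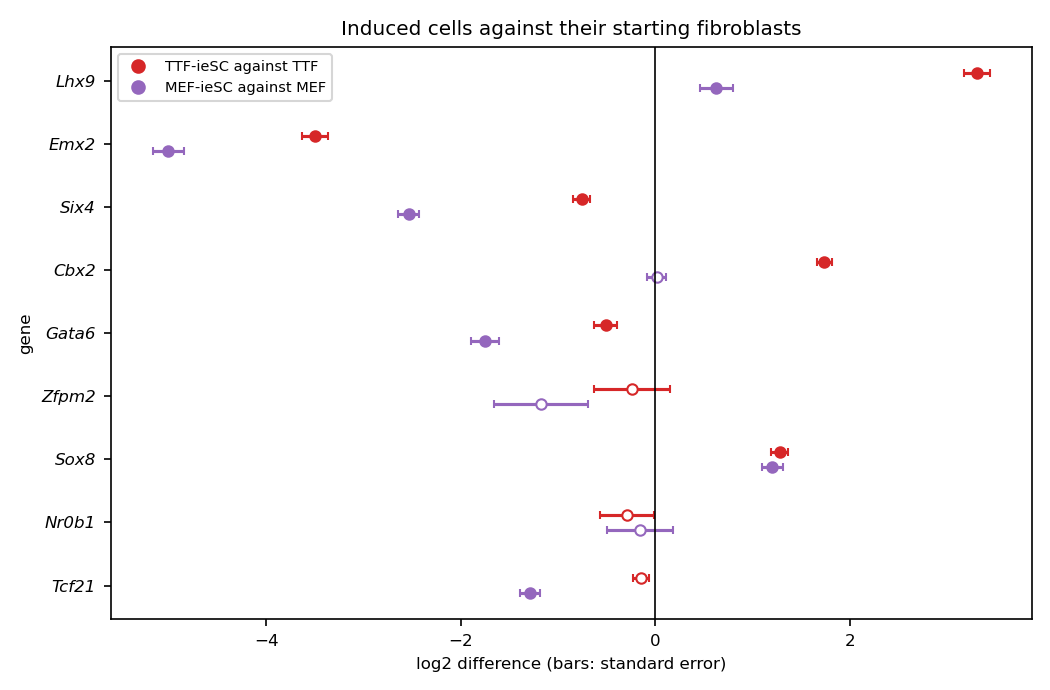
The log2 difference (points) with its standard error (bars) is shown for the 9 genes in TTF-ieSC against TTF and in MEF-ieSC against MEF, with open points where the adjusted p was not under 0.05. Sox8 lies at 1.28 and 1.20, Lhx9 at 3.31 and 0.63, Emx2 at -3.50 and -5.01 and Six4 at -0.76 and -2.54.

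The induced groups lay closer together than their starting cells. The difference between the inductions was called for 6 genes, against 54.1% of all genes, all with a higher value from TTF (28.9% of all genes were called higher and 25.2% lower). They were Lhx9, Emx2, Cbx2, Gata6, Tcf21 and Six4, and for all 6 it was 1 or more in size, against 20.1% of all genes. In TTF against MEF 5 of these (Lhx9, Cbx2, Gata6, Tcf21 and Six4) were lower, by 0.82 to 3.28, and Emx2 did not pass (adjusted p = 0.241). In all, 5 of the 9 were called there, against 66.6% of all genes (31.1% higher and 35.5% lower). Between TTF-ieSC and MEF-ieSC 2 of the 9 were called, against 14.3% of all genes: Emx2 was higher in TTF-ieSC by 1.32 ± 0.16 and Lhx9 lower (difference -0.60 ± 0.17, adjusted p = 0.0487). Over the 9 genes the root mean square difference was 0.57 between these 2 groups and 1.46 between TTF and MEF, and over all genes tested it was 0.47 and 0.998.

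Against gonad and immature Sertoli cells most of the 9 genes were lower in the induced cells, and against mature Sertoli cells the directions were mixed. In TTF-ieSC against gonad 8 were called, against 79.7% of all genes, and all 8 were lower, against 41.5% of genes called lower and 38.2% called higher. All 8 were lower by 1 or more, against 20.3% of all genes. The exception, Zfpm2, had -0.95 (adjusted p = 0.0524) with its brighter feature and -0.88 (adjusted p = 4.73e-07) with the other. The median difference was -2.21 over the 9 genes and -0.03 over all genes. Nr0b1, which met the filter through the native arrays alone, is among the 8 here and among those called against immature cells, and it adds no support to these counts.

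In TTF-ieSC against immature Sertoli cells 8 were called, against 76.8% of all genes, with Lhx9 and Six4 higher (37.8%) and 6 lower (39%). Those lower by 1 or more were Nr0b1, Emx2, Gata6 and Tcf21, 4 of the 9 against 17.5% of all genes. In MEF-ieSC against immature Sertoli cells 7 were called, against 70.6%, with Lhx9 higher (34.4%) and the same 6 lower (36.2%). Sox8, Cbx2 and Six4 in the induced cells lay within 0.42 of immature Sertoli cells.

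For mature Sertoli cells minus TTF-ieSC 7 of the 9 were called, against 79.6% of all genes, with 5 higher and 2 lower in mature cells. Cbx2 (-1.23 ± 0.08) and Six4 (-0.22 ± 0.09, adjusted p = 0.0441) were lower in mature cells, and Lhx9 had -0.12 ± 0.14 (adjusted p = 0.452). For mature Sertoli cells minus MEF-ieSC 6 were called, against 74.9% of all genes, with Nr0b1, Emx2, Gata6 and Tcf21 higher and Lhx9 (-0.71 ± 0.17) and Cbx2 (-1.25 ± 0.10) lower in mature cells. Tcf21 had the widest difference in both, at 6.32 ± 0.08 and 5.999 ± 0.10. Nr0b1, which met the filter through the native arrays alone, adds no support to either count.

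**Figure D5:**
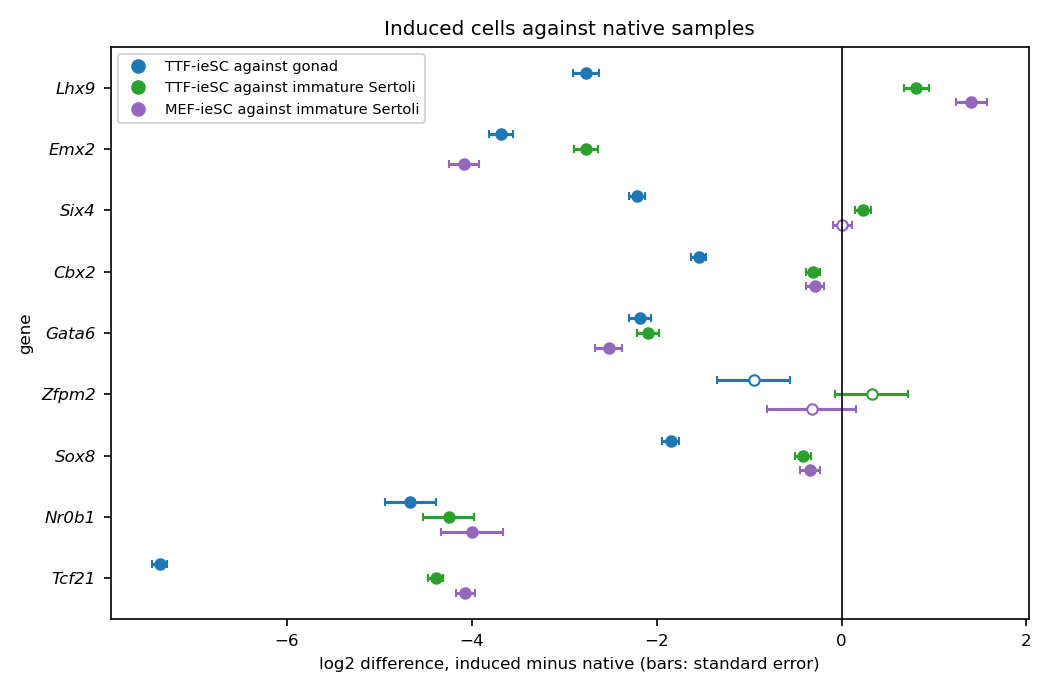
The log2 difference, induced minus native, is plotted with its standard error for the 9 genes in 3 comparisons, with open points where the adjusted p was not under 0.05. Tcf21, Nr0b1, Emx2 and Gata6 lie at -2.10 or below in all 3 comparisons, while Six4, Cbx2 and Sox8 lie between -0.42 and 0.23 against immature Sertoli cells.

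Among the native groups, immature Sertoli cells had less of 7 genes than gonad (70.5% of all genes were called, 37.9% lower and 32.6% higher) and more of none. Lhx9 (-3.57 ± 0.14), Tcf21 (-2.98 ± 0.08), Six4 (-2.44 ± 0.09), Sox8 (-1.43 ± 0.09), Cbx2 (-1.24 ± 0.08), Emx2 (-0.92 ± 0.13) and Zfpm2 were lower. The Zfpm2 difference was -1.27 with the brighter feature, which read low on immature replicate 2, and -0.29 with the other (adjusted p = 0.000862). With the brighter feature the call was lost when only gonad and immature Sertoli cells were fitted (adjusted p = 0.0768). Mature against immature Sertoli cells gave 4 calls, against 68.5% of all genes, with Lhx9 and Tcf21 higher (28.9%) and Cbx2 and Gata6 lower (39.6%). Immature Sertoli cells against MEF gave 8 calls, against 71.8% of all genes. Sox8, Nr0b1, Cbx2, Gata6 and Tcf21 were higher (36.2%) and Lhx9, Emx2 and Six4 lower (35.6%). Nr0b1, which met the filter through the native arrays alone, adds no support to this count. The Cbx2 call there was lost without MEF replicate 2 (0.22, adjusted p = 0.0521).

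Other genes of gonad formation were read from fixed lists, beside 39.5% of all genes called higher and 35.2% lower in TTF-ieSC against TTF and 34.3% and 33.6% in MEF-ieSC against MEF. The medians over all genes were 0.06 and 0.01. Of 11 genital ridge factors tested, 3 rose and 7 fell in TTF-ieSC against TTF (median -0.54), among them Wt1, a labelled factor (9.67 ± 0.07), and Osr1, an early factor of the urogenital mesoderm (-7.64 ± 0.43). In MEF-ieSC against MEF 2 rose and 8 fell (median -0.98). Of 12 testis-determining genes tested, 8 rose and 2 fell in each induction, with Ptgds and Dhh among the rises and the Sry activator Gadd45g at -5.91 ± 0.08 from TTF and -6.94 ± 0.09 from MEF. Sry itself was dim in every group, at 6.28 to 6.87. Of 11 ovary-determining genes tested, 3 rose and 6 fell in each induction, with Rspo1, an activator of Wnt signalling, up by 6.68 ± 0.08 from TTF and 3.997 ± 0.09 from MEF. Fst, the activin-binding follistatin, fell in both (-4.15 ± 0.12 and -4.29 ± 0.14).

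Reported targets of the 9 factors were low in the induced cells beside native samples. Of 9 tested, 7 were lower and 1 higher in TTF-ieSC against immature Sertoli cells (median -4.15 against 0.01 over all genes), and 9 were lower in TTF-ieSC against gonad (median -5.74 against -0.03). Of all genes 39% and 41.5% were called lower in these comparisons. The list was not split by whether a factor activates or restrains its target, and Nr5a1, which Tcf21 restrains, is on it. The counts and medians therefore do not measure the activity of the 9 factors. By group means, Dkk1 exceeded the array median in gonad alone, and Amh in gonad and immature Sertoli cells alone. Both met the filter through groups where they are high, so they add no support to these counts. The inhibin subunit gene Inha had means of 15.73 in immature Sertoli cells and 10.23 in TTF-ieSC. Cyp11a1, the side-chain cleavage enzyme of steroid synthesis and a Leydig cell gene, had 13.89 and 5.04. In TTF-ieSC against TTF 4 of the 9 were higher and 2 lower (39.5% and 35.2% of all genes), with Pdgfra at -4.38 ± 0.10. Star, Cyp11a1, Cyp17a1, Hsd3b1 and Pdgfra are also on the Leydig or interstitial marker lists, and the part of those cells in these values was not tested.

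The 3 genes with the profile most like each member, by Pearson correlation over the 13 arrays, are given as a description. Replicates and the common array distribution are shared by all these points. For Nr0b1 they were the germ cell gene Sycp3 (0.993), Adgrg1 (0.991) and the germ cell gene Mael (0.988). For Tcf21 they were Star (0.992), Atp8a2 (0.989) and Kcnd3 (0.985). Sox8 was most like Caskin1 (0.984), Sox13 (0.980) and Mcrip2 (0.978), and Lhx9 like Igsf3 (0.977), Etl4 (0.967) and Arxes1 (0.965). Emx2 was most like Mageh1 (0.987), Dapk1 (0.984) and Tcfl5 (0.981), and Cbx2 like Mrps27 (0.987), Dusp9 (0.986) and Setdb1 (0.986). Gata6 was most like Afap1l1 (0.980), Btbd10 (0.979) and Srsf9 (0.975), and Six4 like Gtf3c3 (0.972), Akna (0.969) and Colec10 (0.966). For Zfpm2, whose brighter feature is low on 1 immature array, Pdcd2l (0.968), Uqcr10 (0.929) and Zmym2 (0.913) came nearest, and immature Sertoli cells had the lowest mean of Pdcd2l and Zmym2. Among the members Lhx9 and Cbx2 (0.846) followed Nr0b1 and Tcf21, and Lhx9 and Emx2 had the lowest value (-0.08).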

How the data were processed

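The values are log2 signals as deposited by the authors, from 1-colour Cy3 arrays, with the same distribution on all 13 arrays. The submitters' processing notes name limma without a version; how features were extracted and background corrected is not given in the sources used here. The platform annotation, updated through RefSeq (GRCm38.p6), gave a gene name to 31465 of the 62976 features.

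A gene was represented by its feature with the highest mean. Tests covered the 16658 genes that exceeded the array median on 2 or more arrays; all 9 members did, Nr0b1 through the native arrays alone. All groups entered 1 fit in limma 3.58.1 (lmFit and eBayes; R 4.3.3; 6 residual degrees of freedom), with two-sided tests and Benjamini-Hochberg adjustment over all genes; calls are at an adjusted p under 0.05. MEF-ieSC, with 1 array, takes its spread from the other groups. The fit was tested on simulated data. The number of arrays limits the precision. Nothing says that replicates are separate animals or cultures, so the p-values cover the spread of these arrays alone, and that spread may be technical.

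Named genes were the members, their relatives and partners, at most 3 of the most changed called genes of each list, and the 3 genes most like each member. Members and lists were chosen with earlier results of these data known. Alternatives changed the normalization, the filter, the feature, the variance model, the arrays in the fit and a minimum difference.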

Additional observations from a re-analysis of the deposited data

Results flagged for a closer look

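For 6 genes the change from starting to induced cells differed between the 2 starting cells, by a test of the difference itself (TTF-ieSC minus TTF, less MEF-ieSC minus MEF, in the fit over all arrays). The differences were 2.68 ± 0.22 for Lhx9 (adjusted p = 1.67e-05), 1.78 ± 0.13 for Six4 (adjusted p = 1.17e-05), 1.72 ± 0.12 for Cbx2 (adjusted p = 8.68e-06), 1.51 ± 0.21 for Emx2 (adjusted p = 0.000433), 1.24 ± 0.19 for Gata6 (adjusted p = 0.000676) and 1.14 ± 0.13 for Tcf21 (adjusted p = 0.000126). Each rests on 1 MEF-ieSC array. Unequal starting levels enter them too. TTF against MEF was -3.28 for Lhx9, -1.74 for Cbx2, -1.56 for Six4, -1.46 for Tcf21, -0.82 for Gata6 and -0.19 for Emx2. TTF-ieSC against MEF-ieSC was -0.60, -0.02, 0.22, -0.32, 0.42 and 1.32 in the same order. Dim values enter the differences of Lhx9 (in TTF), Emx2 (in both induced groups) and Tcf21 (in TTF and both induced groups). For Lhx9 the other features gave 2.65 and 4.10.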

How the results depend on the processing

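Of 2013 alternative values of single members, 1908 kept their direction and side of the threshold, 20 turned sign, 38 lost a call and 47 gained one. A trended, robust variance changed no member's call. Quantile normalization and a common 75th percentile changed none either. The arrays already had the same distribution, so these settings had little or nothing to change and do not test the normalization. Their values are counted among the 1908. Filtering at the 75th percentile left 5 members called in TTF-ieSC against immature Sertoli, 4 in MEF-ieSC against immature Sertoli and 5 in immature Sertoli against MEF, since fewer members were tested. A test against a minimum difference of 1 left 3 for the difference between the inductions, 4 each in TTF-ieSC against immature Sertoli, MEF-ieSC against immature Sertoli, immature Sertoli against gonad and immature Sertoli against MEF, 2 in mature against immature Sertoli, and 10 neighbouring groups. Leaving out each array in turn gave 6 to 7 calls for TTF-ieSC against TTF, MEF-ieSC against MEF and their difference, 8 to 9 for TTF-ieSC against gonad, 7 to 8 for TTF-ieSC and 7 for MEF-ieSC against immature Sertoli, 6 to 8 for immature Sertoli against gonad, 4 to 5 for mature against immature Sertoli, 7 to 9 for immature Sertoli against MEF, 5 to 6 for TTF against MEF and 22 to 27 neighbouring groups.

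Signs turned for small or dim differences, and for Zfpm2 against immature Sertoli cells, where its brighter feature read low on immature replicate 2. The cause was not tested. With the mean of features Nr0b1 gave 0.26 for TTF-ieSC against TTF, 0.024 for MEF-ieSC against MEF, 0.23 for their difference and 0.13 for TTF against MEF, and Zfpm2 gave -0.13 for TTF-ieSC against immature Sertoli. With the second brightest feature Zfpm2 gave -0.58 for that comparison and -0.33 for mature against immature Sertoli, and Nr0b1 gave 1.07 for TTF against MEF. Other turns came from leaving out 1 array. The difference between the inductions ran from -0.068 (without MEF replicate 1) to 0.219 (without MEF replicate 2) for Sox8. For Nr0b1 it ran from -0.639 (without TTF-ieSC replicate 2) to 0.370 (without TTF-ieSC replicate 1), with 0.0195 without MEF replicate 1. With the same TTF-ieSC arrays left out, Nr0b1 in TTF-ieSC against TTF ran from -0.797 to 0.212. Nr0b1 in TTF against MEF ran from -0.270 (without MEF replicate 1) to 0.0379 (without MEF replicate 2), with 0.0102 without TTF replicate 2. Cbx2 in MEF-ieSC against MEF ran from -0.0694 (without MEF replicate 2) to 0.096 (without replicate 1). Six4 in mature against immature Sertoli ran from -0.0087 to 0.0367 (without mature replicate 1 and 2), and Gata6 in immature Sertoli against gonad from -0.170 to 0.0054 (without gonad replicate 1 and 2). Without immature replicate 2 and 1, Zfpm2 against immature Sertoli ran from -0.465 to 1.11 in TTF-ieSC, from -1.11 to 0.468 in MEF-ieSC and from -0.361 to 1.22 in mature cells. Lhx9 in MEF-ieSC against MEF was no longer called with the second brightest feature (0.24, adjusted p = 0.647).

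No paired analysis was possible because the labels give no replicate numbers that pair arrays across groups; the numbers used here follow the order of deposit and only name arrays. Comparisons with MEF-ieSC rest on 1 array. Signals under the array median have no known background, which limits the folds of Emx2, Nr0b1 and Tcf21 in the induced cells, of Lhx9 over TTF and of Sox8 over both fibroblasts.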
